A study of Mus musculus with 28 samples.

Results

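The 8 genes described here encode enzymes of cholesterol synthesis, *Hmgcs1*, *Mvd*, *Idi1*, *Fdps*, *Fdft1*, *Sqle*, *Lss* and *Cyp51*. They were taken by gene symbol from a table of 23038 genes measured by RNA-seq in mouse brain. The study compared mice homozygous for a humanized *Nova1* allele (*Nova1* hu/hu) with wild-type mice (*Nova1* wt/wt). The allele replaces an isoleucine of the NOVA1 RNA-binding protein with the valine found in modern humans. It was made by CRISPR/Cas9 editing, sits in the germline and so is present in every cell, and the labels give a BL6 background for both genotypes. Midbrain was taken from late embryos (E18.5) and from mice at postnatal day 21 (P21), and cortex at P21. Each genotype had 6 embryonic libraries and 4 from either region at P21, 28 in all. Each library was made from dissected tissue, so fewer cells of a type and less RNA per cell cannot be told apart in any value below.

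Cholesterol is made from acetyl-CoA in a long chain of reactions, first through mevalonate to isoprenoid units, then through squalene to lanosterol, and last through a series of sterols. The brain makes its own cholesterol because lipoproteins do not cross the blood-brain barrier, and myelin holds much of it. Transcription of the enzymes is driven by the factor SREBP-2 (gene *Srebf2*), which SCAP carries out of the endoplasmic reticulum when sterols are low and which INSIG proteins hold back when sterols are high. SREBP-2 commonly acts together with NF-Y, a factor that binds CCAAT letters.

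Promoter sequences (GRCm38.p6) are shown for the members with one available, 5 of 8. Shared control of transcription is what the family is best known for. Each runs 5′ to 3′ on the gene's own strand, from 250 bases before the gene start to 50 bases after it. For *Lss* the start used differs from that of the RefSeq gene (76531565), so its window reaches further into the gene than the others. Capitals mark CCAAT, or its reverse complement ATTGG, and TCACNCCAC, a spelling of the sterol regulatory element. The regions are chr13:119690101-119690400 (plus strand) for *Hmgcs1*, chr8:122443373-122443672 (minus strand) for *Mvd*, chr13:8885356-8885655 (plus strand) for *Idi1*, chr10:76531355-76531654 (plus strand) for *Lss* and chr5:4104648-4104947 (minus strand) for *Cyp51*.
*Hmgcs1*: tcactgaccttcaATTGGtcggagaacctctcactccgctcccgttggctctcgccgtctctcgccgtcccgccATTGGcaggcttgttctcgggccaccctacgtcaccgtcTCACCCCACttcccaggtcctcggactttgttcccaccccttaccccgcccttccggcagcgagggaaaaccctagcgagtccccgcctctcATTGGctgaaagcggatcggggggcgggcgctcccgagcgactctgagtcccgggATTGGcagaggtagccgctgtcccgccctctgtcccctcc
*Mvd*: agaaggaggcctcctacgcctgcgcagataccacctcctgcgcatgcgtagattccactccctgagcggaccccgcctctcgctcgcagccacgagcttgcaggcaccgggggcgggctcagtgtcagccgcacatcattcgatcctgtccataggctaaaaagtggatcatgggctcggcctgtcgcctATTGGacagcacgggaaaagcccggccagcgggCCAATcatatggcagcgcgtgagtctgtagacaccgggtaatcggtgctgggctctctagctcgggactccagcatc
*Idi1*: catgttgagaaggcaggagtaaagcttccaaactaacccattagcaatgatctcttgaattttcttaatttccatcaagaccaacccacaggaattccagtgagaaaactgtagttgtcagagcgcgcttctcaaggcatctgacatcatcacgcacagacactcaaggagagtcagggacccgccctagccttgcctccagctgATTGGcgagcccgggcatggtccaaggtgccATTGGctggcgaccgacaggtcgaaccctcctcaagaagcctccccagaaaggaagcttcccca
*Lss*: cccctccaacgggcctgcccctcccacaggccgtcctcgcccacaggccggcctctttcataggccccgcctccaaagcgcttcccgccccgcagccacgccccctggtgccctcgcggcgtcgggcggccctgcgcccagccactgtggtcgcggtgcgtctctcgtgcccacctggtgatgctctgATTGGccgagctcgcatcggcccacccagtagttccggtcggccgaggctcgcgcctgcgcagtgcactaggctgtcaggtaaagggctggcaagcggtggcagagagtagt
*Cyp51*: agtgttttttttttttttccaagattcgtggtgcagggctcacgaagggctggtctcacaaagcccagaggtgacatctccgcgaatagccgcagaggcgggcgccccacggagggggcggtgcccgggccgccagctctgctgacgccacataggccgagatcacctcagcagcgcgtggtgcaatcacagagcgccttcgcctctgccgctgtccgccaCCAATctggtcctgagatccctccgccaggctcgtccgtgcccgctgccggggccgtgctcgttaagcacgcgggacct
CCAAT was found on either strand in all 5, against 37.4% of 32851 promoters of the same length. *Hmgcs1* held 4 matches, *Mvd* and *Idi1* 2 each, and *Lss* and *Cyp51* 1 each. TCACNCCAC was found in *Hmgcs1* alone, at base 114 of the printed run, against 1.24% of all promoters. GGGCGG, the GC box bound by SP1, was found in all 5, against 35.7%. No match in these promoters overlapped another. These are letter matches in a short window and say nothing of whether a factor binds.

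The depth behind each value was 18550922 to 45134998 counts per library, and the 8 genes held between 0.0815% and 0.187% of them. All 8 passed the filter on low counts in every comparison. Summed TPM (transcript abundance per exon length, scaled to the library) of the midbrain markers *Th*, *Slc6a3*, *En1* and *Gata3* at P21 was 155 to 190 in midbrain and 10.3 to 20.5 in cortex, while that of 5 cortex markers was 204 to 232 in cortex and 3.77 to 5.21 in P21 midbrain. Both regions therefore carried their own markers. Choroid plexus markers varied widely, from 14.0 to 3038 TPM in sum in P21 midbrain and from 47.6 to 3664 at E18.5. In E18.5 midbrain the libraries numbered 3 stood apart for the members, and also for some other genes, as described below. For the members, the fits between genotypes and ages that use E18.5 are also given without them. For the other lists this is done for the calls with age.

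The order of the members by level was stable at its ends. Averaged over both genotypes, *Hmgcs1*, which condenses acetyl-CoA with acetoacetyl-CoA to HMG-CoA, was the highest member in every tissue, at 645 ± 60.3 TPM (SD, n = 12) in E18.5 midbrain, 573 ± 28.2 (n = 8) in P21 midbrain and 282 ± 14.1 (n = 8) in P21 cortex. *Fdps*, which makes farnesyl diphosphate, followed at 448 ± 43.8, 336 ± 11.4 and 199 ± 10.3 TPM, and *Sqle*, the squalene epoxidase, at 223 ± 26.8, 172 ± 9.21 and 94.1 ± 3.68 TPM. *Idi1*, which interconverts the isoprenoid units, was the lowest at 11.4 ± 1.87, 14.7 ± 1.14 and 7.0 ± 0.341 TPM. In E18.5 midbrain 99.3% of the 23038 genes lay below *Hmgcs1* and 54.8% below *Idi1*.

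The middle of the order was less distinct. *Cyp51*, the lanosterol demethylase, was at 138 ± 19.2, 152 ± 8.68 and 62.3 ± 3.13 TPM, and *Fdft1*, the squalene synthase that commits farnesyl diphosphate to sterols, at 131 ± 24.8, 121 ± 7.49 and 87.2 ± 3.01 TPM. *Cyp51* was above *Fdft1* in 10 of 12 E18.5 libraries with overlapping ranges and in all 8 P21 midbrain libraries, whereas *Fdft1* was above *Cyp51* in all 8 cortex libraries. *Mvd*, which decarboxylates mevalonate diphosphate, was at 94.9 ± 17.2, 89.3 ± 7.13 and 60.3 ± 5.56 TPM. *Lss*, which closes the sterol rings to give lanosterol, was at 67.5 ± 4.98, 74.5 ± 4.67 and 34.0 ± 2.56 TPM. The ranges of neighbours overlapped for *Fdft1* with *Mvd* and *Mvd* with *Lss* at E18.5, for *Sqle* with *Cyp51* and *Mvd* with *Lss* in P21 midbrain, and for *Sqle* with *Fdft1* and *Cyp51* with *Mvd* in cortex. The plot of TPM by library shows each of these values.

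**Figure D1:**
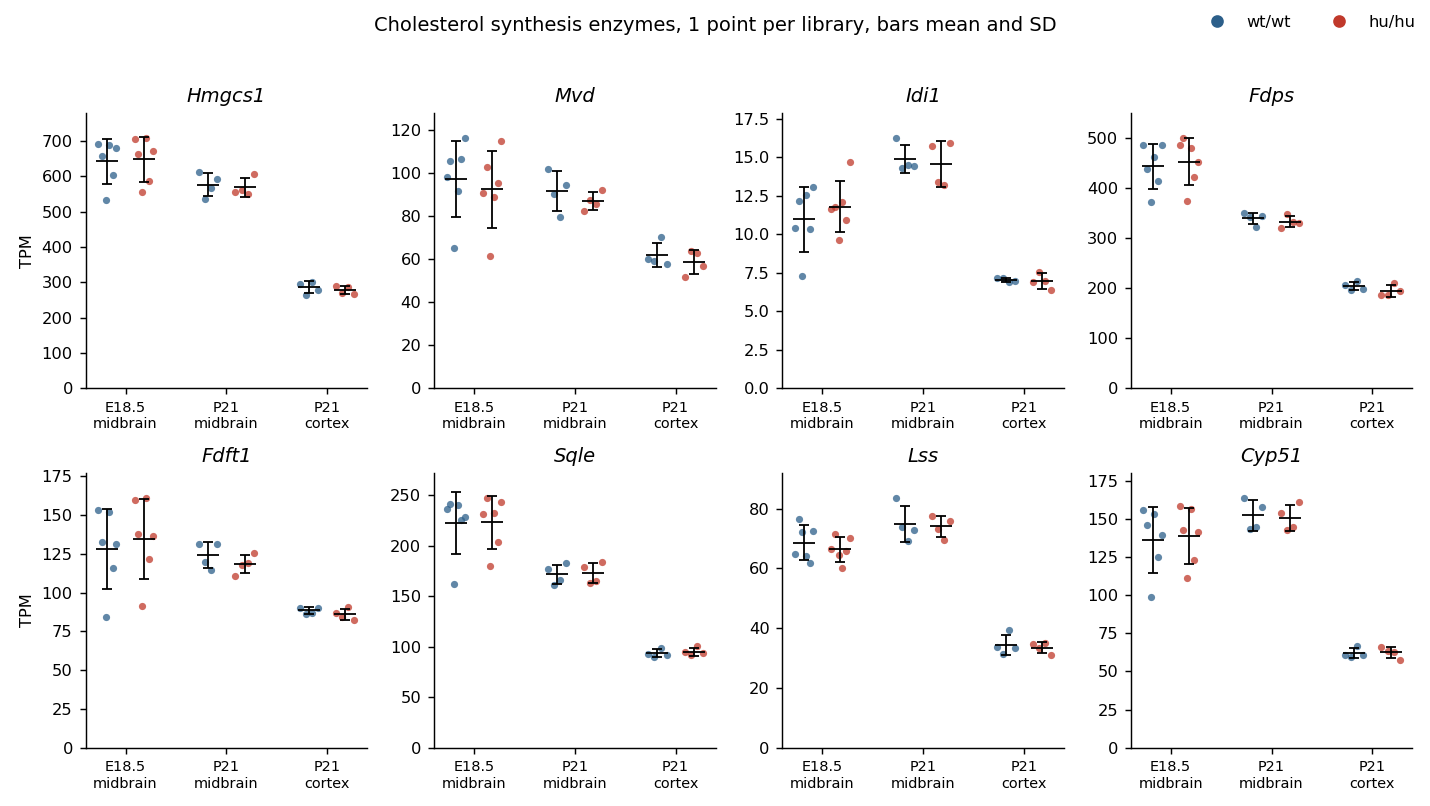
TPM (y axis, from 0) of the 8 enzymes in each of the 28 libraries, 1 point per library, by tissue and age (x axis) and genotype (blue wt/wt, red hu/hu), with bars for the mean and SD. The genotypes overlap in every panel, the cortex points lie below the P21 midbrain points for all 8 genes, and in E18.5 midbrain 1 library of each genotype lies low for all but *Lss*.

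Whether the humanized allele changed these transcripts was tested within each tissue and age. None of the 8 was called by edgeR's quasi-likelihood test (p under 0.05 and Benjamini-Hochberg adjusted p under 0.1) in E18.5 midbrain, P21 midbrain or P21 cortex, where 0% of 15540, 15972 and 15767 genes tested were called. At an unadjusted p under 0.05 the members numbered 0 in each tissue, against 1.29%, 2.67% and 2.85% of all genes, and DESeq2 gave 0 members as well. Over all genes DESeq2 called 1 of 15972 in P21 midbrain. The largest difference was that of *Idi1* at E18.5, where the lowest, median and highest *Nova1* hu/hu library were 9.63, 11.7 and 14.7 TPM and the *Nova1* wt/wt ones 7.29, 11.3 and 13.0 TPM. These ranges overlapped over most of their length, and the log2 fold change (*Nova1* hu/hu minus *Nova1* wt/wt) was 0.11 (SE 0.14, 95% interval −0.18 to 0.40, adjusted p = 0.9999 by edgeR's quasi-likelihood test). The median log2 fold change of the members was 0.015 at E18.5, −0.018 in P21 midbrain and −0.035 in P21 cortex, beside medians of all genes of −0.00062, −0.00010 and −0.00071. Without both E18.5 libraries numbered 3, 0 members were called between genotypes there, and the log2 fold change of *Idi1* was 0.067 (SE 0.10). It was 0.0048 without the *Nova1* wt/wt library numbered 3 alone and 0.17 without the *Nova1* hu/hu one.

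The intervals were narrower at P21 for each member but *Lss*, whose SE was 0.059 at E18.5, 0.054 in P21 midbrain and 0.074 in P21 cortex. In P21 midbrain the most negative member was *Mvd*, with 82.2, 87.4, 85.8 and 92.4 TPM in the *Nova1* hu/hu and 102, 90.6, 79.8 and 94.5 TPM in the *Nova1* wt/wt libraries. The groups overlapped, and its log2 fold change was −0.071 (SE 0.064, 95% interval −0.21 to 0.064). In cortex *Mvd* was again the most negative, with 51.5, 63.7, 62.7 and 56.7 against 60.3, 59.3, 70.4 and 57.8 TPM and a log2 fold change of −0.074 (SE 0.077, 95% interval −0.24 to 0.091). *Hmgcs1*, the most abundant member, differed by −0.015 (95% interval −0.099 to 0.070) in P21 midbrain and by −0.033 (−0.14 to 0.071) in cortex. Over the 24 single-gene comparisons, exact two-sided permutation tests on log2(TPM + 1) gave unadjusted p values from 0.257 to 0.935, and the genotype ranges overlapped in each.

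Libraries of the same number deviated together in both genotypes, so the comparison was also made within numbers. For *Fdft1* the *Nova1* hu/hu library was the higher one in 6 of 6 E18.5 pairs and for *Mvd* in 0 of 6. The difference in log2(TPM + 1) was 0.071 for *Fdft1* and −0.075 for *Mvd*, each with an unadjusted p of 0.0313 by an exact sign-flip test of the pairs, which is the smallest value that 6 pairs allow. Without the pair numbered 3 the same held in 5 of 5 and 0 of 5 pairs, each with p = 0.0625 by the exact sign-flip test, the smallest that 5 pairs allow. With the number as a block in edgeR's quasi-likelihood test neither was called over all genes: the log2 fold change was 0.066 (SE 0.028, adjusted p = 0.929) for *Fdft1* and −0.079 (SE 0.040, adjusted p = 0.937) for *Mvd*. In that fit by edgeR *Fdft1* alone of the 8 had an unadjusted p under 0.05 (0.0300), against 5.23% of 15540 genes. At P21 the *Nova1* hu/hu library was the higher one in 1 of 4 pairs in midbrain and in 1 of 4 in cortex, for *Fdft1* and for *Mvd* alike. The difference of the genotype effect between ages, and between regions, was tested as an interaction and called for 0 of 8 members and 0% of 16330 and 16345 genes. At an unadjusted p under 0.05 it was 0 members with edgeR's quasi-likelihood test and with DESeq2, against 1.86% and 2.28% of all genes. With the block, *Fdft1* had an unadjusted p of 0.0193 for the interaction with age in the fit by edgeR and an adjusted p of 0.995, where 4.54% of all genes had an unadjusted p under 0.05. Without both E18.5 libraries numbered 3 and with no block, 0 members were called for the interaction with age, and the value of *Fdft1* was −0.12 (SE 0.13).

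**Figure D2:**
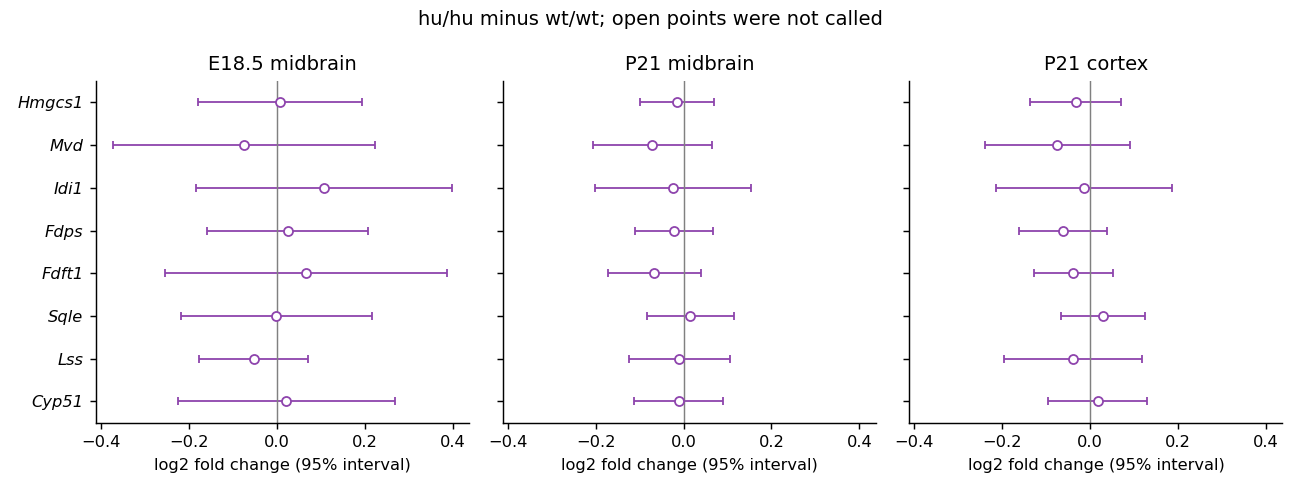
Log2 fold change of *Nova1* hu/hu against *Nova1* wt/wt (x axis) for the 8 enzymes (y axis) in each tissue, with 95% intervals from edgeR's fit, where open points mark genes that were not called. All 24 intervals include 0, and those of E18.5 midbrain are the widest for each gene but *Lss*, which is widest in P21 cortex.

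The comparison of regions asked how the levels differed between P21 midbrain and P21 cortex, with genotype as a covariate. All 8 members were higher in midbrain by edgeR's quasi-likelihood test, where 75.6% of 16345 genes were called and 37.9% were called higher. The member ranges of the 8 midbrain and 8 cortex libraries did not overlap for any of the 8, as was so with midbrain higher for 27.4% of 16805 genes. The median log2 fold change (midbrain minus cortex) was 0.87 for the members and 0.00063 over all genes, and 2 members exceeded a 2-fold difference, as did 7.81% of all genes in the same direction. As a ratio of mean TPM, which is scaled differently from the fit, 4 members exceeded 2-fold. The share of all genes on that measure is not given, so 7.81% does not apply to this count. Between 78.0% and 94.3% of genes had a lower log2 fold change than a given member.

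*Cyp51* and *Lss* differed most. *Cyp51* had its lowest, median and highest library at 143, 149 and 164 TPM in midbrain and at 57.6, 61.8 and 66.5 TPM in cortex. Its log2 fold change was 1.21 (SE 0.038, adjusted p = 4.28e-19 by edgeR's quasi-likelihood test). *Lss* was at 69.3, 73.5 and 83.6 TPM against 31.0, 33.6 and 39.3 TPM, a log2 fold change of 1.05 (SE 0.047). The ratio of the TPM means was 2.43 for *Cyp51* and 2.19 for *Lss*, beside 2.10 for *Idi1* and 2.03 for *Hmgcs1*, and no cortex library came near the midbrain range of *Cyp51* or *Lss*. *Sqle* was at 161, 171 and 184 TPM against 89.5, 93.3 and 100 TPM, a log2 fold change of 0.80 (SE 0.033). *Fdft1* differed least, at 111, 119 and 132 TPM against 82.3, 86.8 and 90.5 TPM and a log2 fold change of 0.40 (SE 0.033).

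Among the enzymes before squalene, *Hmgcs1* and *Idi1* came close to 2-fold. *Hmgcs1* was at 535, 564 and 612 TPM in midbrain and at 265, 283 and 302 TPM in cortex, a log2 fold change of 0.95 (SE 0.034). *Idi1* was at 13.2, 14.5 and 16.2 TPM against 6.35, 6.98 and 7.57 TPM, a log2 fold change of 0.99 (SE 0.059). *Fdps* was at 320, 338 and 349 TPM against 186, 197 and 214 TPM, with 0.68 (SE 0.033), and *Mvd* at 79.8, 89.0 and 102 TPM against 51.5, 59.8 and 70.4 TPM, with 0.49 (SE 0.053). The member differences were therefore unequal, and the intervals of *Cyp51* (1.13 to 1.28) and *Fdft1* (0.33 to 0.47) lay far apart. The sum of the 8 was 1533 ± 63.4 TPM in midbrain and 826 ± 33.8 TPM in cortex, a fold of 1.86.

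The comparison of ages asked how the levels differed in midbrain between E18.5 and P21, with genotype as a covariate, and the P21 midbrain libraries are the same ones that entered the comparison of regions. By edgeR's quasi-likelihood test 3 members were higher at P21, 2 were lower and 3 were not called, in a comparison that called 85.6% of 16330 genes, 42.4% higher and 43.3% lower. None reached a 2-fold difference, whereas 30.6% of all genes were called and did. The median log2 fold change (P21 minus E18.5) was 0.098 for the members and −0.015 over all genes.

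*Idi1* rose the most. Its lowest, median and highest library were 7.29, 11.7 and 14.7 TPM at E18.5 and 13.2, 14.5 and 16.2 TPM at P21, so the ranges overlapped, and its log2 fold change was 0.57 (SE 0.090, adjusted p = 2.17e-06). *Lss* rose by 0.34 (SE 0.042), from 60.0, 66.2 and 76.6 TPM to 69.3, 73.5 and 83.6 TPM. *Cyp51* rose by 0.34 (SE 0.076), from 98.8, 142 and 158 TPM to 143, 149 and 164 TPM. For both the ranges overlapped.

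The members that fell were *Fdps* and *Sqle*, which sit on either side of the squalene synthase step. *Fdps* went from 373, 457 and 499 TPM at E18.5 to 320, 338 and 349 TPM at P21 with no overlap of the ranges, as for 58.5% of all genes, a log2 fold change of −0.21 (SE 0.057, adjusted p = 0.00130). *Sqle* went from 162, 232 and 247 TPM to 161, 171 and 184 TPM, a log2 fold change of −0.17 (SE 0.068, adjusted p = 0.0229). For *Sqle* the ranges met only through the E18.5 libraries numbered 3. *Hmgcs1* (0.028, SE 0.057), *Mvd* (0.11, SE 0.094) and *Fdft1* (0.084, SE 0.10) were not called.

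The directions with age depend on the scale. Scaled by library totals alone, the median of all genes moved to −0.17, and *Hmgcs1* (−0.13), *Mvd* (−0.041) and *Fdft1* (−0.069) turned negative with *Hmgcs1* called. Relative to that median they were 0.045, 0.13 and 0.10. *Fdps* (−0.20), *Sqle* (−0.15), *Idi1* (0.59), *Lss* (0.36) and *Cyp51* (0.36) kept their signs relative to it. In TPM, which is also set by totals, the ratio of P21 to E18.5 means was 0.888 for *Hmgcs1*, 0.751 for *Fdps*, 0.773 for *Sqle*, 1.29 for *Idi1* and 0.872 for the sum of the 8. Without both E18.5 libraries numbered 3, the same count of 5 members was called, with *Fdps* at −0.26, *Sqle* at −0.24, *Idi1* at 0.49, *Lss* at 0.34 and *Cyp51* at 0.27, while *Hmgcs1* (−0.023) and *Fdft1* (−0.014) changed sign without being called. The median of the members was then 0.000071.

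The members can be set in the pathway with 11 other enzymes that were listed for it. With age 6 of the 11 were higher, 4 lower and 1, *Nsdhl*, was not called. The late enzyme *Ebp* (log2 fold change 1.43, SE 0.090), the sterol isomerase, was the 1 that exceeded 2-fold. The early enzyme *Acat2* (−0.82, SE 0.066), which makes acetoacetyl-CoA, fell the most of the 11, although *Hmgcs1*, which uses its product, was not called. Between regions 10 of 11 were higher in midbrain, with *Sc5d* (0.82, SE 0.046) and *Hsd17b7* (0.79, SE 0.051) the largest and *Tm7sf2* (−0.040, SE 0.044) not called. The median log2 fold change of the 11 was 0.60 between regions and 0.12 with age, beside 0.87 and 0.098 for the 8 members. Without both E18.5 libraries numbered 3, 6 of the 11 were higher with age and 5 lower, since *Nsdhl* (−0.18, SE 0.052) was called, with *Ebp* at 1.34 and *Acat2* at −0.87.

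**Figure D3:**
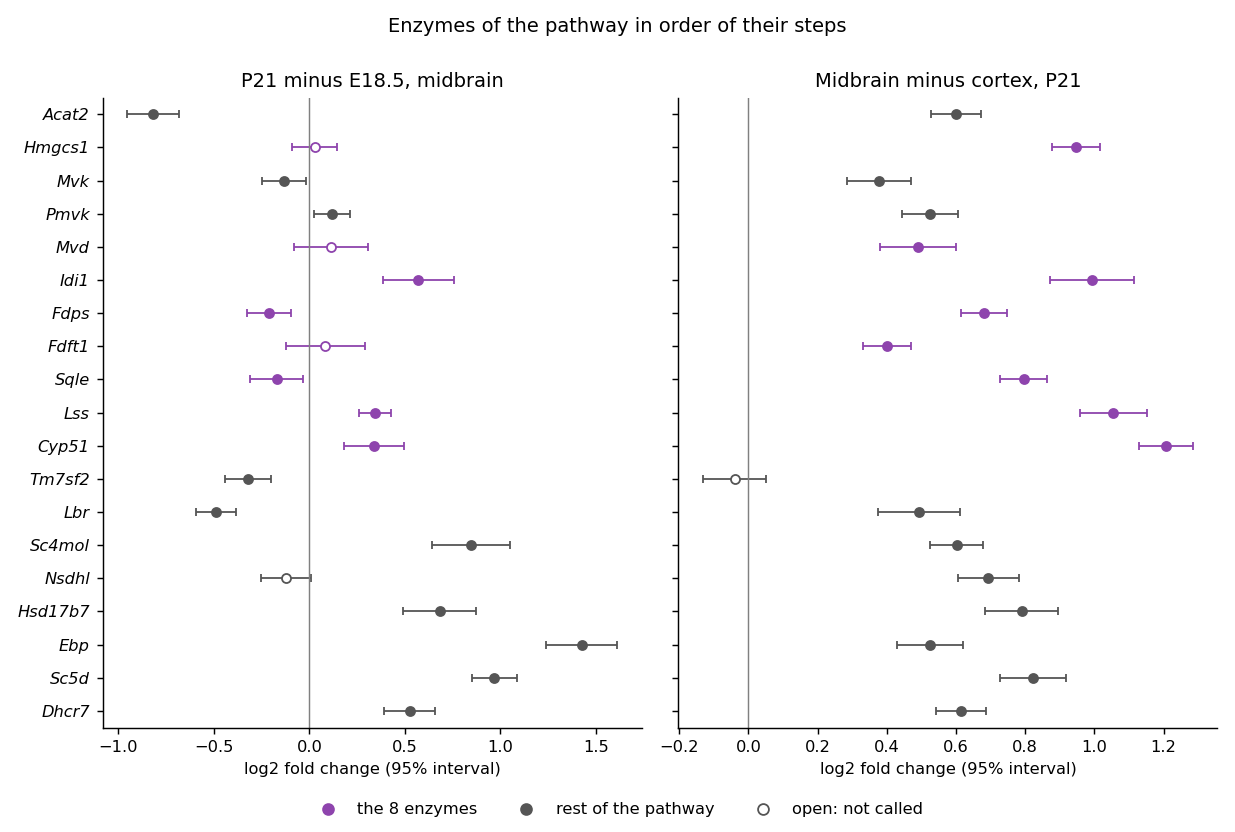
Log2 fold change with 95% interval (x axis) of 19 pathway enzymes in the order of their steps (y axis; *Sc4mol* is the symbol used in the files for *Msmo1*), between ages on the left and between regions on the right, with filled points for called genes. The 8 members (purple) lie between −0.21 and 0.57 with age and between 0.40 and 1.21 between regions, where they include the largest differences of the 19.

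Genes that control sterol synthesis and uptake moved in both directions. With age 10 of 11 were higher and 1 lower. *Npc2* (1.27) and *Npc1* (1.25), which move cholesterol out of lysosomes, rose the most, and *Mbtps2*, a protease that releases SREBPs, had a log2 fold change of −1.42 (SE 0.054). Between regions 7 were higher in midbrain, 2 lower and 2 not called, and *Npc1* (1.02, SE 0.034) alone exceeded 2-fold. *Srebf2* (0.0070, SE 0.033) and *Scap* (0.0045, SE 0.030) were the pair not called between regions, while *Insig1* was higher in midbrain by 0.77 (SE 0.037).

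Turnover and export genes rose with age more than the members did, with 11 of 12 higher and a median of 1.06. *Cyp27a1*, the sterol hydroxylase, rose by 3.72 (SE 0.14), *Lcat*, which esterifies cholesterol on lipoproteins, by 3.30 (SE 0.10), *Cyp46a1*, the neuronal cholesterol hydroxylase, by 2.30 (SE 0.071), and *Apoe*, the main brain apolipoprotein, by 2.30 (SE 0.086). *Abcg1* (1.55) and *Nr1h3* (1.15) also exceeded 2-fold, and *Abca1*, a cholesterol exporter, fell by 0.85 on the log2 scale. Between regions 9 were higher in midbrain, 1 lower and 2 not called, with *Cyp27a1* (1.73, SE 0.081) and *Lipa* (1.04, SE 0.044), the lysosomal lipase, higher and *Cyp46a1* (−1.16, SE 0.037) lower. Of 9 genes that take farnesyl diphosphate or its precursors to other products, 6 were higher and 2 lower with age, led by *Dhdds* (0.88) and *Coq2* (0.78). Between regions 5 were higher and 2 lower, led by *Fnta* (0.97) and *Fntb* (0.47), the subunits of farnesyltransferase. Without both E18.5 libraries numbered 3 no gene of the lists of control, turnover and other branches changed its call or its sign with age, and their log2 fold changes moved by at most 0.065. In none of these lists was a gene called between genotypes.

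**Figure D4:**
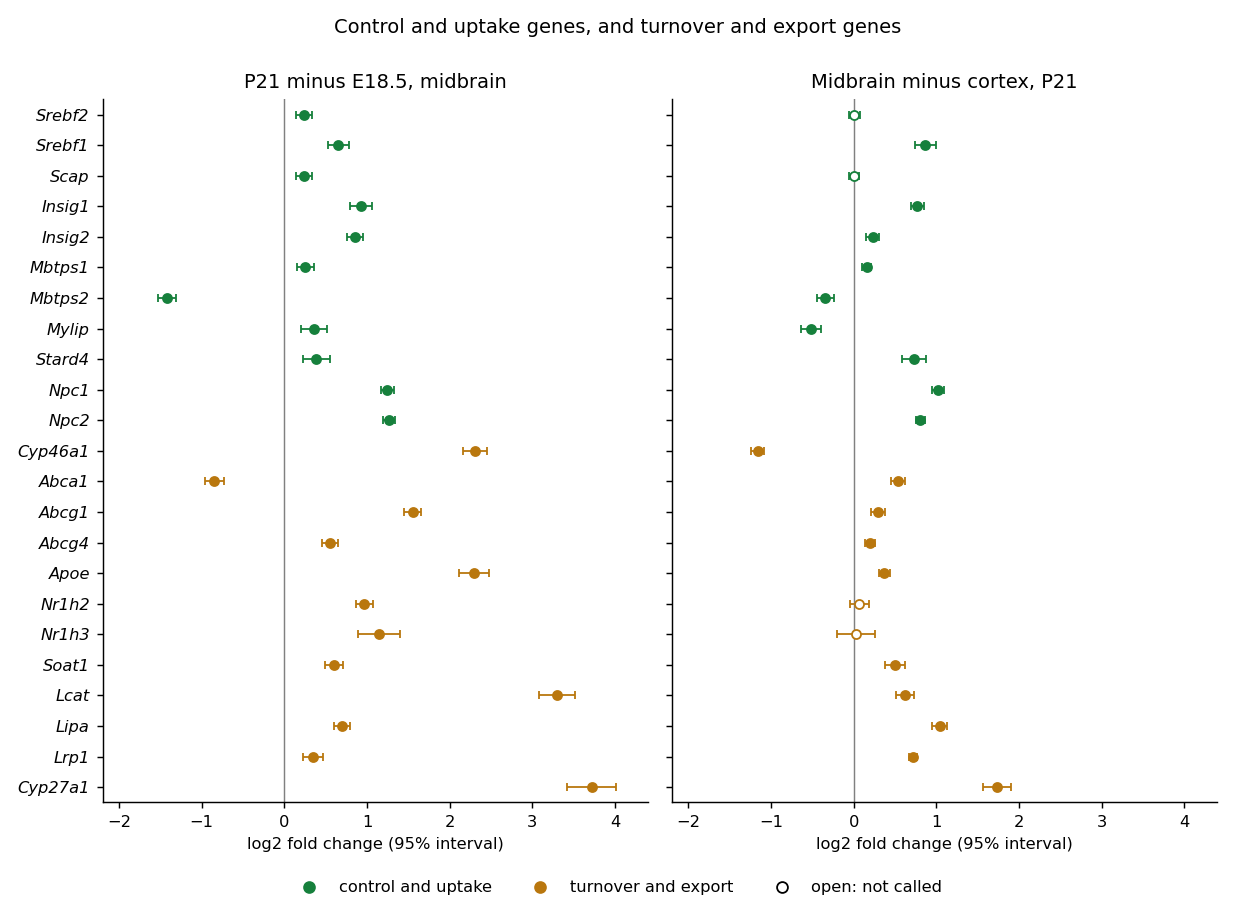
Log2 fold change with 95% interval (x axis) of the genes of control and uptake (green) and of turnover and export (ochre), between ages on the left and between regions on the right, with open points for genes that were not called. *Npc1*, *Npc2* and *Cyp27a1* lie on the right of 0 and *Mbtps2* on the left in both panels, *Cyp46a1* changes side, and *Srebf2* and *Scap* sit at 0 between regions.

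Markers of several cell types moved with both comparisons. The 8 markers of myelinating oligodendrocytes summed to 126 to 167 TPM at E18.5. At P21 their sum was 22672 to 25417 TPM in midbrain and 6732 to 7553 TPM in cortex, with no marker at 0, and all 8 were called higher with age (median log2 fold change 6.89) and in midbrain over cortex (1.64). Of 6 astrocyte markers 5 were higher with age and 5 higher in midbrain. All 4 microglial markers were higher with age and lower in midbrain than in cortex, and 3 of 4 neuronal markers were lower in midbrain. All 3 markers of dividing cells were lower with age, by a median of −4.35. Of the choroid plexus markers 1 of 4 was lower with age and 2 of 4 lower in midbrain. Without both E18.5 libraries numbered 3, 0 of the 4 were called with age. The markers of myelinating oligodendrocytes, astrocytes, microglia and dividing cells kept their calls. The part of these cell types in the member differences was not tested.

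Within E18.5 midbrain the members varied between libraries along the library number. In both genotypes the library numbered 3 had the lowest sum of the 8, 1447 TPM in *Nova1* hu/hu and 1395 TPM in *Nova1* wt/wt, while the other 10 libraries lay between 1631 and 1910 TPM. Of the 8 members 7 had their 2 lowest values of the 12 libraries in this pair, against 4.04% of 16805 genes. The exception was *Lss*, at 64.4 and 72.1 TPM in a range of 60.0 to 76.6. The pair also held both highest values of 11% of the 16805 genes and of 0 members. For the other numbers at E18.5 that share of all genes was 0.904% to 5.22%. For *Fdft1* the pair was at 91.3 and 84.4 TPM, with the other 10 at 116 to 161 TPM. For *Mvd* it was at 61.5 and 65.3 TPM, with the others at 89.0 to 116 TPM, and for *Sqle* at 180 and 162 TPM, with the others at 203 to 247 TPM.

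Of the 11 other enzymes 6 had their 2 lowest values in the same pair, as had 2 of 11 genes of control and uptake, 1 of 12 of turnover and export and 0 of 9 of the other branches. *Lss*, the remaining member, had its 2 E18.5 lowest values in no pair of the same number. For the other numbers at E18.5 the share of all genes with both lowest values in the pair was 0.94% to 5.93%. The pair numbered 6 held both highest values of 2 members. The sums of the marker lists in the pair numbered 3 lay within the range of the other 10 libraries for all lists but the choroid plexus, where they were 2486 and 3664 TPM with the others at 47.6 to 2848 TPM, and the part of this in the low values was not tested. The difference between the genotypes of a pair was small beside the spread between pairs at E18.5: the summed TPM differed by 14.3 to 64.0 within pairs, while the pair means ran from 1421 to 1903. In P21 midbrain the differences within pairs were 2.11 to 139 TPM beside pair means of 1479 to 1592, and in cortex they were 4.74 to 30.4 TPM beside pair means of 798 to 870.

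**Figure D5:**
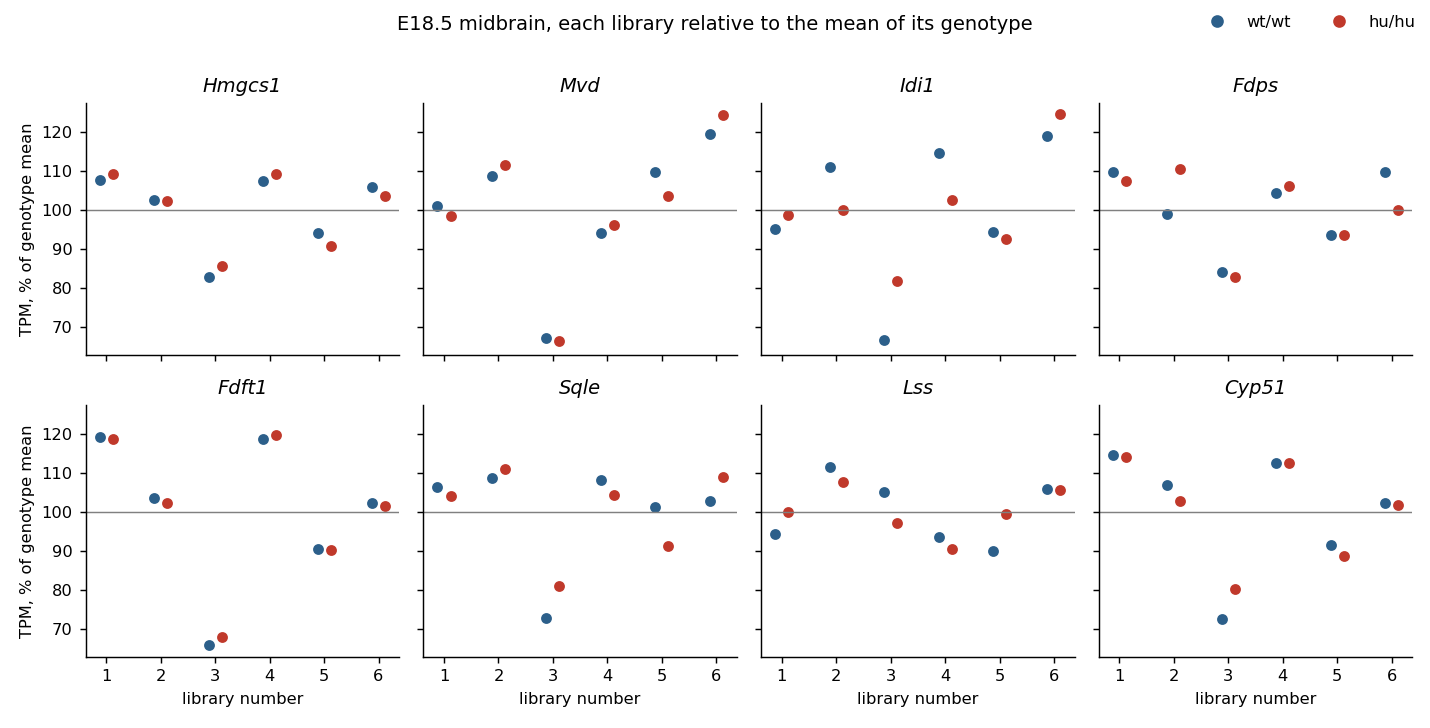
TPM of the 8 enzymes in E18.5 midbrain as a percentage of the mean of the same genotype (y axis, not from 0), by library number (x axis), with wt/wt in blue and hu/hu in red. The points of both genotypes fall together at most numbers, and number 3 is the lowest for all but *Lss*.

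With so few libraries per number, the share of variance that goes with the number is large even where same-numbered libraries are unrelated. It is therefore read only beside the value of all genes. Within genotypes at E18.5 its median, in log2 CPM, was 96.1% for the members and 71.5% over all genes. Without the pair numbered 3 these were 90.8% and 69.3%. It was highest for *Fdft1* (99.9%) and lowest for *Lss* (74.8%). In P21 midbrain the medians were 61.2% for the members and 59.1% for all genes, and in cortex 73.8% and 61.3%. Members also spread less at P21: the median SD within genotypes was 0.24 in log2 CPM at E18.5, 0.079 in P21 midbrain and 0.086 in cortex, beside 0.16, 0.11 and 0.11 over all genes. Without the pair numbered 3 the E18.5 values were 0.13 for the members and 0.16 over all genes.

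Across all 28 libraries, after each group's mean was removed, the 28 pairs of members correlated with a median Pearson r of 0.757 in log2 CPM (range 0.113 to 0.953). The libraries share replicate numbers and scaling, so this describes how the members moved together and carries no test. *Sqle* followed the mean of the other 7 most closely (0.943), then *Cyp51* (0.920) and *Hmgcs1* (0.917), and *Lss* least (0.304). Leaving out the pair numbered 3 at E18.5 lowered the median to 0.504. The group means removed there were still those taken with the pair, so this value keeps part of the pair's influence. The median was 0.812 in the E18.5 libraries and 0.511 in the P21 libraries alone. In the P21 libraries *Lss* followed the others at 0.830, among the highest.

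Among the 10 genes outside the family whose deviations were most like the member mean, by Pearson r over the 28 libraries among 16805 genes, were *Narf* (0.952), *Sc4mol* (0.951), *Tra2a* (0.919), *Hsd17b7* (0.910), *Med20* (0.891), *Aacs* (0.888), *Nfya* (0.879), *Hspa8* (0.876) and *Dynll1* (0.876). *Sc4mol* and *Hsd17b7* are enzymes of the same pathway, *Aacs* activates acetoacetate for lipid synthesis, and *Nfya* encodes a subunit of NF-Y. Of the 10, 3 were again among the 10 highest without the pair numbered 3, again with group means taken with the pair. In the P21 libraries alone 2 were. Over the lists the median r was 0.730 for the rest of the pathway, 0.373 for control and uptake, 0.034 for the other branches and −0.224 for turnover and export, beside −0.024 over all genes. *Insig1* (0.861) and *Stard4* (0.796) were the highest of the control genes, and *Abca1* was at −0.861, with 0.0714% of genes below it. These genes were picked from their lists after their values were seen. The values of the lists and their genes were computed over all 28 libraries and not repeated without the pair numbered 3.

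Exons of 6 of the 8 members share bases with another annotated gene in GENCODE. *Fdps* shares 1124 bases with *Gm43738* on the same strand, and *Fdft1* shares 774 with *Ctsb* on the opposite strand. *Hmgcs1* (557 bases), *Lss* (381), *Idi1* (323) and *Cyp51* (166) each share bases with a gene on the opposite strand. The counting is not stated to use strand, so reads from these stretches may belong to either gene. *Mvd* and *Sqle* share none.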

How the data were processed

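Gene expression was measured by RNA-seq of dissected brain tissue in 28 libraries. Paired-end reads of polyadenylated RNA were aligned by the authors to mm10 (OLego) and counted per gene (Quantas), and their notes name edgeR. The deposited tables give, for 23038 genes per library, RPKM, exon length and an expected count. The deposited RPKM values follow from the expected counts, exon lengths and totals (largest relative difference 2.27e-13) and were used only as an alternative for the summed level.

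Expected counts were rounded for the tests, and TPM was computed from them unrounded. R 4.3.3, edgeR 4.0.16 and DESeq2 1.42.0 were used. The main test was edgeR's quasi-likelihood test with TMM factors and filterByExpr over all genes, called where p was under 0.05 and the Benjamini-Hochberg value under 0.1. Log2 CPM used a prior count of 2 and permutation tests a pseudocount of 1. Counts were also simulated for each comparison with 200 genes changed 2-fold, to see whether the test recovers them. The recovery counts are not given here. Simulated libraries were drawn independently, so that check did not cover the shared deviations of same-numbered libraries. Smaller changes, such as those of the members between genotypes, were not simulated. Members and lists were chosen with earlier results of these data known. A few listed genes are not reported here. All 8 members were named; of other lists, called genes past 2-fold or else the 2 largest. No column of another sample was used. Of 23038 Entrez identifiers 22959 matched RefSeq.

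Replicate numbers pair the genotypes. Same-numbered libraries of the genotypes had deviations from their group means that correlated, with r between 0.171 and 0.391 at E18.5, between 0.201 and 0.235 for P21 midbrain and between 0.170 and 0.246 for P21 cortex. This pairing comes from the data, since the labels give only the numbers. Alternatives are listed in the closing section.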

Additional observations from a re-analysis of the deposited data

Results flagged for a closer look

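Over the 8 members and their sum in 6 groups, 54 sets of libraries were examined, and 2 held a library far from the rest, where chance alone flags about 1 in 20. *Idi1* was at 16.2 TPM in the *Nova1* wt/wt library numbered 1 of P21 midbrain, with the other 3 at 14.3 to 14.5 TPM. *Sqle* was at 162 TPM in the *Nova1* wt/wt library numbered 3 of E18.5 midbrain, with the other 5 at 225 to 242 TPM. The *Sqle* library is part of the pair that was low for 7 of 8 members.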

How the results depend on the processing

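With each alternative no member was called between genotypes or in an interaction, all 8 were called higher in midbrain than in cortex, and 5 or 6 were called with age. The settings were RLE factors, DESeq2, a stricter adjusted p of 0.05, no filter, a minimum of 10 counts per library, library totals alone, the replicate block, all 28 libraries in a single fit for the genotypes, and each library left out in turn. Library totals alone and both E18.5 libraries numbered 3 left out were chosen after seeing the data. With the replicate block 6 members were called with age, since *Mvd* (0.24) was added, and it changed no other call of a member by edgeR. Between genotypes in P21 midbrain the block fit called 4 of 15972 genes, with 0 members among them. In the sign-flip test of same-numbered pairs 2 of the 24 single-gene genotype differences passed an unadjusted p of 0.05, *Fdft1* (0.071) and *Mvd* (−0.075) at E18.5. That test was not run over all genes. In edgeR's quasi-likelihood test with the block 1 member passed an unadjusted p of 0.05 at E18.5, against 5.23% of 15540 genes. Between ages the correlation of same-numbered libraries was −0.15 to 0.15, beside a median of −0.068 for differently numbered ones, so the numbers do not pair ages. Between regions it was −0.20 to −0.10, beside a median of 0.10 for differently numbered ones. Same-numbered libraries of the regions thus deviated in opposite directions, and the cause was not tested. Differences near 0 changed sign. For *Sqle* between genotypes at E18.5 the log2 fold change was 0.022 with library totals alone, 0.00069 with no filter and 0.0027 with the replicate block, and with totals alone it was −0.0080 in P21 midbrain. With totals alone the values with age were −0.13 for *Hmgcs1*, −0.041 for *Mvd* and −0.069 for *Fdft1*, those of genotype by age −0.044 for *Mvd*, −0.030 for *Sqle* and −0.0039 for *Lss*, and that of genotype by region −0.014 for *Mvd*. Without both E18.5 libraries numbered 3 the age values were −0.023 for *Hmgcs1* and −0.014 for *Fdft1*. The median correlation among members was then 0.504, with group means still taken over all libraries. Leaving out 1 library at a time turned the sign of the following differences, none of which was called. The log2 fold changes ran, between genotypes in E18.5 midbrain from −0.048 to 0.059 for *Hmgcs1*, from −0.17 to 0.028 for *Mvd*, from −0.029 to 0.083 for *Fdps*, from −0.037 to 0.16 for *Fdft1*, from −0.084 to 0.062 for *Sqle* and from −0.063 to 0.087 for *Cyp51*; between genotypes in P21 midbrain from −0.044 to 0.012 for *Hmgcs1*, from −0.066 to 0.015 for *Idi1*, from −0.048 to 0.0018 for *Fdps*, from −0.012 to 0.045 for *Sqle*, from −0.042 to 0.043 for *Lss* and from −0.041 to 0.022 for *Cyp51*; between genotypes in P21 cortex from −0.069 to 0.0029 for *Hmgcs1*, from −0.12 to 0.0015 for *Mvd*, from −0.059 to 0.033 for *Idi1*, from −0.083 to 0.038 for *Lss* and from −0.018 to 0.061 for *Cyp51*. They ran, for genotype by age from −0.068 to 0.038 for *Hmgcs1*, from −0.094 to 0.11 for *Mvd*, from −0.10 to 0.011 for *Fdps*, from −0.041 to 0.10 for *Sqle* and from −0.092 to 0.057 for *Cyp51* and, for genotype by region from −0.015 to 0.058 for *Hmgcs1*, from −0.071 to 0.056 for *Mvd*, from −0.057 to 0.036 for *Idi1*, from −0.064 to 0.0050 for *Fdft1*, from −0.048 to 0.021 for *Sqle*, from −0.045 to 0.085 for *Lss* and from −0.071 to 0.0073 for *Cyp51*. The cause of these changes was not tested. With 4 to 6 libraries per group the 95% intervals of single members between genotypes reached −0.37 for *Mvd* and 0.40 for *Idi1* at E18.5 and were narrower for most others. These intervals come from the fit without the replicate block, and true differences inside a member's own interval were not excluded by it.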
